A study of Mus musculus with 22 samples.

Results

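Bipolar cells are the interneurons of the retina that carry the signal of rods and cones to the inner retina. This account compares messenger RNA of mouse bipolars purified at postnatal day 13 (P13) with that of bipolars purified at postnatal day 7 (P7), over all genes of the table. The 4 libraries were chosen by their labels, 2 at P7 and 2 at P13, out of 22 libraries in the series. The other libraries were rods and cones at P7, P13 and P30, bipolars at P30, and rod bipolars and cone bipolars at P13, each with 2 libraries. All came from mouse retina, sorted as cells before RNA was isolated and amplified. No strain, genotype, transgene or treatment is stated in the labels of any group, and none is therefore attached to the groups here. The sample labels call the cells bipolars, and the design of the series calls them ON-bipolars.

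A bipolar cell sends a dendrite to the outer plexiform layer, where it meets the terminals of rods or cones, and an axon to the inner plexiform layer, where it releases glutamate from ribbon synapses onto amacrine and ganglion cells. ON bipolars sense glutamate through the metabotropic receptor mGluR6, whose cascade closes the cation channel TRPM1, and OFF bipolars through ionotropic glutamate receptors. Rod bipolars take their input mainly from rods, and the several types of cone bipolar mainly from cones. In the mouse retina the dendrites and synapses of bipolars form during the postnatal weeks before and around eye opening, which is the background to comparing these ages.

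The 2 P7 libraries held 17463877 and 14403312 reads and the P13 libraries 16977963 and 17048465 reads over the genes of the table, and 12950 to 13501 genes had reads in each. Levels are given as CPM, a read count divided by the effective library size that the authors' values imply and scaled to a fixed total. The 22 bipolar identity genes summed to 13117 and 12018 CPM at P7 and to 11769 and 11239 CPM at P13, against 1636 to 3416 CPM in the rod and cone libraries of these ages. A list of 11 OFF-bipolar genes also had reads, 1391 and 1389 CPM at P7, and 1964 and 1912 CPM at P13. Rod bipolars, which are ON cells, held 1723 and 1516 CPM of the same list at P13, so its sum does not single out OFF bipolars. In a principal component analysis of the 6 bipolar libraries the first component (58.3% of the variance) ordered the ages P7, P13 and P30, and replicate 2 at P13 stood apart on the second (19.1%). The labels do not say that replicates came from separate animals, so every p-value here reflects library-to-library spread, possibly only technical. In bulk libraries, fewer cells of a type and less RNA per cell cannot be told apart.

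Markers of some other cells were higher at P13, among them glial, microglial, vascular, and pigment epithelium and red blood cell markers. This stands before every result below. The 25 Müller glia markers summed to 445 and 448 CPM at P7 and to 1323 and 1719.9 CPM at P13. The 16 microglia and macrophage markers went from 35.04 and 19.7 CPM to 134.8 and 122 CPM, and the 16 vascular markers from 31.5 and 34.2 CPM to 124.5 and 126 CPM. The 12 markers of pigment epithelium and red blood cells went from 19.96 and 10.9 CPM to 167 and 119 CPM. The 30 rod markers did not separate the ages, at 1924 and 1872 CPM at P7 and 1959 and 1910 CPM at P13. The 19 amacrine markers stood at 1686 and 1826 CPM at P7 and 1744 and 2184 CPM at P13. Ganglion cell markers (16) also overlapped, at 341 and 299 CPM at P7 and 226 and 401 CPM at P13. Horizontal cell markers (9) were lower, at 1301 and 1322 CPM at P7 and 1129 and 1285 CPM at P13. The part of these cells in the results was not tested, and their lists are described near the end.

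The first question was which genes differed between the ages. Of 13410 genes tested, 400 were called, meaning an adjusted p (Benjamini-Hochberg, limma) below 0.05 with a log2 change of 1 or more in size, which is 2.98% of those tested. Of these, 308 were higher at P13 (2.3%) and 92 were lower (0.686%). The median rise among called genes was 2.07 and the median fall was -1.66 on the log2 scale, and the median over all genes tested was 0.02. In each of the 400 called genes both P13 libraries lay on the same side of both P7 libraries, as they did in 66.7% of all genes tested. Without 1 library the counts fell: to 181 higher and 33 lower without replicate 1 at P7, 134 and 31 without replicate 2 at P7, 156 and 72 without replicate 1 at P13, and 145 and 31 without replicate 2 at P13. Calls in all 4 of these fits were kept by 114 of the higher and 22 of the lower genes.

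The spread per gene in this test was pooled over all 22 libraries. It was wide for bipolar genes that photoreceptors hardly express. Among genes with a mean log2 CPM of at least 5 in the higher bipolar group, 510 were under 1 CPM in at least 1 rod or cone group, and their median standard error (SE) was 1.75 with all 22 libraries and 0.16 with the 4 bipolar libraries alone. For 4922 genes at 8 CPM or more in every rod and cone group the median SE was 0.27 and 0.14. A fit of the 4 libraries alone called 1475 genes higher (12.2% of 12108 tested) and 553 lower (4.57%), and it holds 294 of the 308 and 89 of the 92. It is named the 4-library fit, and for the gene lists its counts stand beside those of the 22-library fit. Its spread rests on 2 libraries a group. A fit of the 10 bipolar, rod bipolar and cone bipolar libraries lay between, with 1046 higher (8.05%) and 259 lower (1.99%).

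The 4 genes that had been put forward as marks of this period were called with 22, 10 and 4 libraries, with voom on recovered reads, and without each library. They are described here and not taken as independent support, since they were chosen with earlier results of these data known. Cplx4 (chromosome 18, 65955722 to 65970237, GRCm38) encodes a complexin, a protein that clamps and promotes vesicle fusion at ribbon synapses. Its level was 4.70 and 2.26 CPM at P7 and 92.5 and 84.2 CPM at P13, and both P13 libraries lay far above both P7 libraries (log2 fold change 4.75 ± 0.28 (SE), adjusted p = 1.87e-07). Cacnb2 (chromosome 2, 14603088 to 14987908) encodes the beta subunit that pairs with the L-type calcium channel of ribbon terminals. It was measured at 6.84 and 7.74 CPM at P7 and 67.8 and 90.4 CPM at P13 (log2 fold change 3.43 ± 0.30 (SE), adjusted p = 6.2e-06). Gabbr2 (chromosome 4, 46662305 to 46991873) encodes a subunit of the GABA-B receptor, through which GABA acts by a G protein. It had 4.28 and 5.14 CPM at P7 and 98.4 and 142 CPM at P13 (log2 fold change 4.65 ± 0.59 (SE), adjusted p = 0.0002). Dpysl3 (chromosome 18, 43320984 to 43438286) encodes a collapsin response mediator protein of growing axons and dendrites, and moved the other way. Its level was 495 and 622 CPM at P7 and 121 and 191 CPM at P13, with no overlap of the groups (log2 fold change -1.86 ± 0.22 (SE), adjusted p = 0.000103).

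**Figure D1:**
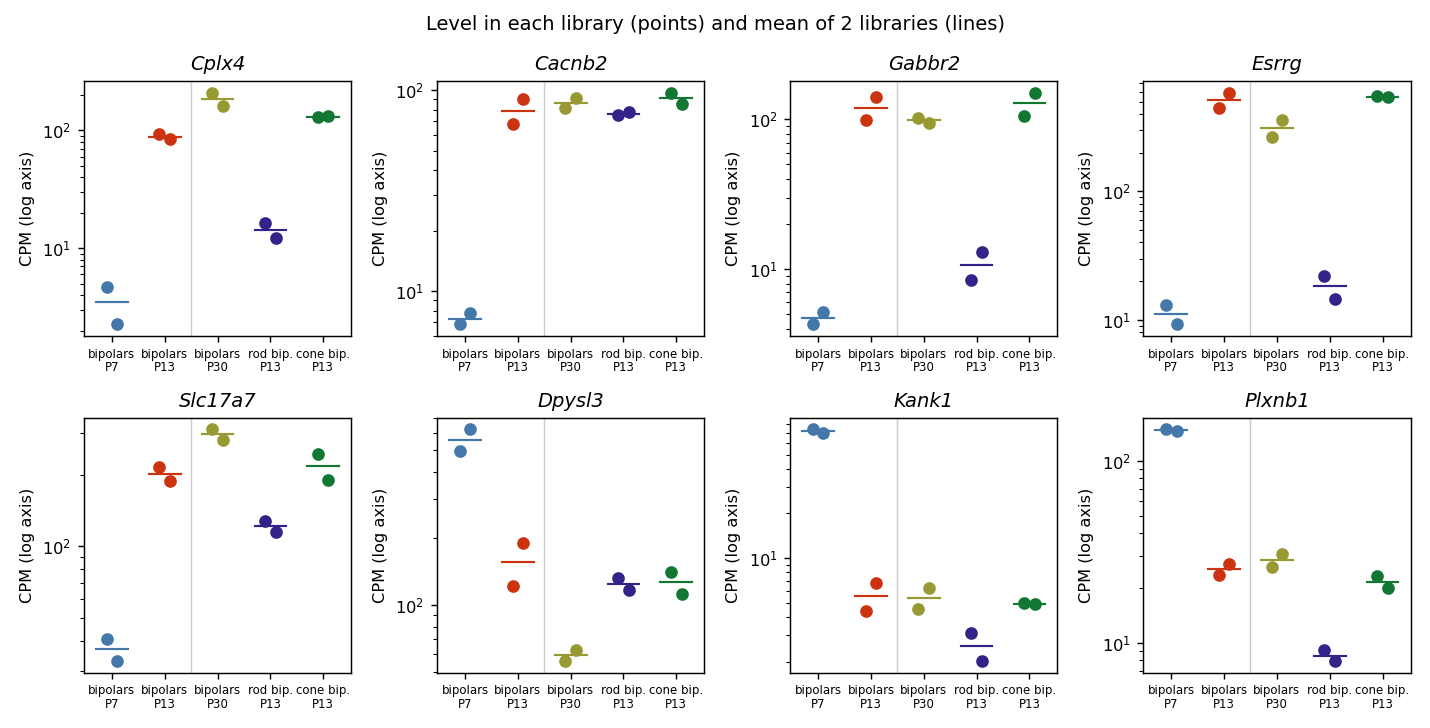
Level of 8 genes in each library of bipolars at P7, P13 and P30 and of rod bipolars and cone bipolars at P13, as CPM on a log axis; points are libraries and lines are means of 2 libraries. All 8 are called genes, and their P7 and P13 bipolar points do not overlap, as in 66.7% of all genes tested. Cplx4, Gabbr2 and Esrrg stand at 14.3, 10.7 and 18.2 CPM in rod bipolars against 131, 128 and 548 CPM in cone bipolars.

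At P13 the sorted bipolar classes differed in some of these genes, as the plot of levels by library shows. Mean Cplx4 was 14.3 CPM in rod bipolars and 131 CPM in cone bipolars, and mean Gabbr2 was 10.7 and 128 CPM. Cacnb2, at 76.5 and 91.3 CPM, and Dpysl3, at 125 and 127 CPM, lay closer together. Of the 308 genes called higher at P13, 34 (11.04%) were at least 4-fold higher in cone bipolars than in rod bipolars and 12 (3.90%) at least 4-fold higher in rod bipolars, with 1 CPM added to each mean. Over all genes tested these shares were 3.45% and 1.64%. No test was made of this difference.

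The 15 largest rises included the following genes. Esrrg, an orphan nuclear receptor of the estrogen-related family, was measured at 13.12 and 9.21 CPM at P7 and 445 and 589 CPM at P13 (log2 fold change 5.54 ± 0.31 (SE), adjusted p = 1.52e-07). Plk5, of the polo-like kinase family, had 4.33 and 3.90 CPM at P7 and 193 and 191 CPM at P13 (log2 fold change 5.54 ± 0.38 (SE), adjusted p = 5.31e-07). Akain1, an A-kinase anchor inhibitor, had 0.745 and 0.283 CPM at P7 and 43.2 and 49.3 CPM at P13 (log2 fold change 6.63 ± 0.93 (SE), adjusted p = 0.000481), and Fam78a had 0.605 and 0.791 CPM at P7 and 17.9 and 25.2 CPM at P13 (log2 fold change 4.93 ± 0.77 (SE), adjusted p = 0.00124). These calls, like that of Cplx4, held in all 4 fits that left out a library. Kcng4, a modulatory potassium channel subunit, went from 2.33 and 2.09 CPM to 159 and 132 CPM (log2 fold change 6.03 ± 1.196 (SE), adjusted p = 0.00865). Gabrr2, a rho subunit of the ionotropic GABA receptor of bipolar terminals, went from 3.40 and 2.03 CPM to 322 and 333 CPM (log2 fold change 6.96 ± 1.80 (SE), adjusted p = 0.0437). Htr3a, a serotonin-gated channel, went from 0.140 and 0.0565 CPM to 39.3 and 33.4 CPM (log2 fold change 8.55 ± 1.91 (SE), adjusted p = 0.0186). Lrtm1, a leucine-rich repeat protein, went from 18.2 and 15.3 CPM to 458 and 406 CPM (log2 fold change 4.69 ± 0.95 (SE), adjusted p = 0.00981). Its gene lies within Cacna2d3 on the opposite strand, and the libraries carried no strand information, so reads of the 2 genes cannot be told apart where they overlap. Irs4 went from 0.279 and 0.226 CPM to 19.3 and 24.1 CPM (log2 fold change 6.38 ± 1.65 (SE), adjusted p = 0.043), and Sgpp2, a sphingosine-phosphate phosphatase, from 0.651 and 1.02 CPM to 37.7 and 32.1 CPM (log2 fold change 5.41 ± 0.99 (SE), adjusted p = 0.00514).

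For 4 of the leading rises the P7 libraries together held 1 to 3 reads, so the fitted change depends on the small value added before the log. Slc24a4, a sodium, potassium and calcium exchanger, had 1 read at P7 and 707 at P13, a ratio of 672 after scaling (exact 95% interval of the reads 120.1 to 26563). Tcerg1l had 3 and 1498 reads (ratio 474, interval 162 to 2303), Dsc2, a desmosomal cadherin, 3 and 505 reads (160, 54.4 to 778), and Cck, the peptide cholecystokinin, 2 and 398 reads (189, 51.99 to 1566). These intervals cover counting error only, since the RNA had been amplified. The adjusted p in the 22-library fit was 0.00461 for Slc24a4, 0.00765 for Tcerg1l, 0.0172 for Dsc2 and 0.0122 for Cck. Of the 15 leading rises and 15 leading falls together, voom on recovered reads called 23. All 30 leading genes (15 rises and 15 falls) were also called in the 4-library fit, at adjusted p of 4.25e-06 to 0.0146, but only 10 held in every fit of the 22-library model that left out a bipolar library. Slc24a4 lost its call without replicate 1 at P7 (adjusted p = 0.0721), and Sgpp2 without replicate 1 at P7 (0.0587) or either P13 library (0.0510 and 0.0504). Dsc2 lost it without replicate 2 at P7 (0.284) or either P13 library (0.0965 and 0.153). Tcerg1l, Htr3a, Cck, Gabrr2, Irs4, Kcng4 and Lrtm1 lost it without any 1 of the 4, with adjusted p between 0.0538 and 0.289.

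**Figure D2:**
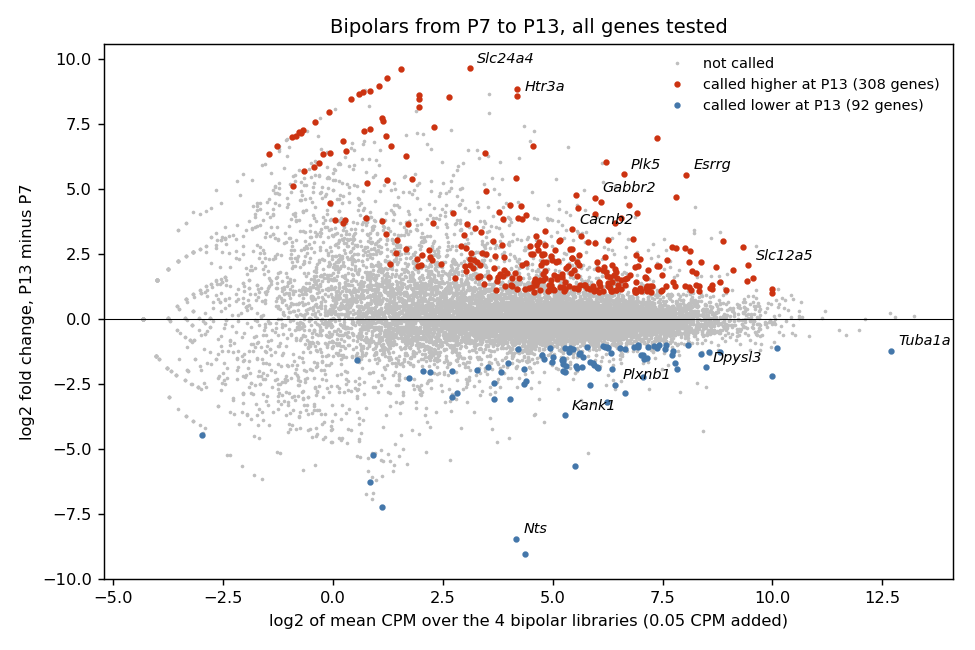
Log2 fold change of P13 minus P7 against the log2 mean CPM of the 4 bipolar libraries, for 13410 genes tested; coloured points are the 308 genes called higher and 92 called lower, grey points were not called. The called genes reach further up than down, and many large grey changes sit among the called ones.

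The promoters of the given and leading genes were searched for short sequences. RefSeq promoters (GRCm38.p6), taken as 250 bases before to 50 bases after the start nearest to the annotated gene start, were found for 27 of the 33 given and leading genes. The others were not used or had no entry. For Prdm1 and Nr2e3 the start in that table lay 69753 and 10580 bases from the annotated one. The letters TAATCC, the core recognised by OTX homeodomain proteins such as OTX2 and CRX, were searched on both strands. They were present in 4 of the 27 promoters, those of Gabrr2, Slc24a4, Kcng4 and Lrtm1, which are shown for that reason with the match in capitals (GGATTA where it lies on the other strand).
Gabrr2, chr4:33062862-33063161, plus strand: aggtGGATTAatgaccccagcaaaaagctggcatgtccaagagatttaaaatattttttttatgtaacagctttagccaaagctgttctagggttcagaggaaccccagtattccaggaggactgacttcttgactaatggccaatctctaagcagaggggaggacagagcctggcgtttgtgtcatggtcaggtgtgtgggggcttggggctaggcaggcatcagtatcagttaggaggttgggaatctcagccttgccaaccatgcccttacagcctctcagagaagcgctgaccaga
Slc24a4, chr12:102128477-102128776, plus strand: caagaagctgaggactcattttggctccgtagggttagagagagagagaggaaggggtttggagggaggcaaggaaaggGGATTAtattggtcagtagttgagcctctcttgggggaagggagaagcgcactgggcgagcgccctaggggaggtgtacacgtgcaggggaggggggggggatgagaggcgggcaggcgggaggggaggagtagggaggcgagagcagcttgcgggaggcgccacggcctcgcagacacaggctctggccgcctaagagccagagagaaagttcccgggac
Kcng4, chr8:119635631-119635930, minus strand: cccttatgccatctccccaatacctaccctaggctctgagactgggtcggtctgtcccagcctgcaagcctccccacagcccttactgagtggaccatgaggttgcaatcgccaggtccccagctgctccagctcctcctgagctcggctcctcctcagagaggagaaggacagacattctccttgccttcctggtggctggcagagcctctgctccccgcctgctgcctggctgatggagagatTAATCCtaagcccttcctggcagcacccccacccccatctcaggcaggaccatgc
Lrtm1, chr14:29017958-29018257, plus strand: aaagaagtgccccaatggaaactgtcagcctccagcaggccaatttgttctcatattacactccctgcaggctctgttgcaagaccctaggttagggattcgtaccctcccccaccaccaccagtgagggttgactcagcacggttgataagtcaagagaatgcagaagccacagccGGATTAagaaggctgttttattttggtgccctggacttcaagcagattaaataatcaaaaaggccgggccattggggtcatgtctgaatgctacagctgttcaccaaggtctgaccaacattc
The match begins 246, 171, 5 and 73 bases before the start site in these genes. The same letters lay in 602 of 10409 promoters of all genes tested (5.78%), in 21 of 236 of the genes called higher (8.90%) and in 10 of 71 of those called lower (14.1%). In the 4-library fit the shares were 6.66% of the higher and 5.50% of the lower genes. AAGGTCA, a site read by estrogen-related receptors such as the product of Esrrg, lay in none of the 27 and in 2.95% of all, 3.81% of the higher and 1.41% of the lower genes. A match describes letters, not a bound site. Otx2 itself was at 2311 and 2144 CPM at P7 and 1419 and 1385 CPM at P13, a change of less than 1 on the log2 scale (log2 fold change -0.67 ± 0.15 (SE), adjusted p = 0.0176).

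The 15 largest falls are taken in turn. Kank1, an adaptor at focal adhesions and the cell cortex, was measured at 74.03 and 69.7 CPM at P7 and 4.36 and 6.74 CPM at P13 (log2 fold change -3.73 ± 0.34 (SE), adjusted p = 9.04e-06). Plxnb1, a receptor for class 4 semaphorins, had 149 and 145 CPM at P7 and 23.5 and 27.05 CPM at P13 (log2 fold change -2.54 ± 0.25 (SE), adjusted p = 1.36e-05). Htra1, a secreted serine protease, had 175 and 177 CPM at P7 and 25.6 and 22.6 CPM at P13 (log2 fold change -2.87 ± 0.46 (SE), adjusted p = 0.0015), and Amotl2, an angiomotin of cell junctions, had 107 and 89.6 CPM at P7 and 14.8 and 19.1 CPM at P13 (log2 fold change -2.54 ± 0.41 (SE), adjusted p = 0.00181). Egflam encodes pikachurin, the matrix protein that joins photoreceptor terminals to bipolar dendrites through dystroglycan, and stood at 12.8 and 9.83 CPM at P7 and 2.23 and 0.873 CPM at P13 (log2 fold change -3.003 ± 0.39 (SE), adjusted p = 0.000204). With voom on recovered reads Egflam was not called (adjusted p = 0.339). In these 5 genes the call held without each library.

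Other falls were as large but less stable. Insm1, a zinc finger factor of differentiating neurons, went from 146 and 128 CPM to 15.1 and 14.5 CPM (log2 fold change -3.20 ± 0.64 (SE), adjusted p = 0.00878). Prdm1 (Blimp1), a repressor that keeps young photoreceptors from the bipolar fate, went from 93.1 and 85.3 CPM to 1.21 and 2.47 CPM (log2 fold change -5.68 ± 1.33 (SE), adjusted p = 0.0255). Nts (the peptide neurotensin) went from 39.2 and 31.6 CPM to 1.36 and 0 CPM, and Igfbp2, a secreted binder of insulin-like growth factors, from 37.04 and 44.6 CPM to 0.776 and 0 CPM, with no reads in replicate 2 at P13 for both. Igf2bp3, an RNA-binding protein of fetal tissue, went from 16.7 and 28.9 CPM to 3.05 and 2.13 CPM, and Mir17hg, the host transcript of the miR-17 cluster, from 14.1 and 10.5 CPM to 2.09 and 1.36 CPM. Lrp4, Fam110a, Ppp1r18 and Nr2e3 completed the 15, with log2 fold changes of -2.49, -2.39, -3.09 and -2.51. Insm1, Prdm1, Mir17hg and Lrp4 lost the call without any 1 of the 4 libraries (adjusted p 0.0508 to 0.299). Nts and Igfbp2 kept it only without replicate 1 at P13 (0.00699 and 0.00825 against 0.156 to 0.568), Nr2e3 only without replicate 2 at P7 (0.0228 against 0.0686 to 0.208) and Fam110a only without replicate 2 at P13 (0.0484 against 0.0776 to 0.192). Ppp1r18 lost it without replicate 2 at P13 (0.0616), and Igf2bp3 without replicate 2 at P7 (0.130) or at P13 (0.0990).

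On the dendrite, genes of the ON bipolar receptor cascade were measured at both ages. Grm6, the gene of mGluR6, stood at 1122 and 1055 CPM at P7 and 1267 and 1115 CPM at P13, with a log2 fold change of 0.13 (adjusted p = 0.994, and 0.325 in the 4-library fit). Gpr179, which anchors the cascade at the dendritic tip, was at 409 and 363 CPM at P7 and 491 and 427 CPM at P13. Of 18 cascade genes tested, 1 rose and none fell in the 22-library fit, and 8 rose and none fell in the 4-library fit, with a list median of 0.62. Over all genes tested 2.3% were higher with 22 libraries and 12.2% with 4. The one called in both was Lrit1, a leucine-rich repeat protein, at 133 and 97.2 CPM at P7 and 266 and 216 CPM at P13 (log2 fold change 1.08 ± 0.22 (SE), adjusted p = 0.00967, and 0.189 and 0.118 without replicate 2 at P7 and replicate 1 at P13). Trpm1, the channel that the cascade closes, was at 173 and 149.5 CPM at P7 and 525 and 471 CPM at P13, which the 22-library fit did not call (adjusted p = 0.928) and the 4-library fit did (5.42e-05). Nyx (nyctalopin, which holds TRPM1 at the tip) was at 10.2 and 9.55 CPM at P7 and 40.4 and 31.4 CPM at P13 and Rgs11, which speeds the shutoff of the G protein, at 85.6 and 80.99 CPM at P7 and 202 and 157 CPM at P13, with the same split between the fits (0.000514 and 0.00102 in the 4-library fit). Gnao1, the G protein alpha subunit, and Gnb3, its beta partner, changed by less than 1 on the log2 scale (0.70 and 0.50). Lrit3 went from 0.279 and 0.113 CPM to 0.0970 and 0.0970 CPM and was near the floor of 3 reads over a group.

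Ionotropic glutamate receptor genes moved in both directions, and none of 28 was called with 22 libraries. The 4-library fit called 9 higher and 2 lower, with a list median of 0.61, where it called 12.2% and 4.57% of all genes. Gria1, an AMPA receptor subunit, went from 13.17 and 22.04 CPM to 134 and 157 CPM (adjusted p = 0.527 with 22 libraries and 9.01e-05 with 4). Gria2 went from 276 and 309 CPM to 659 and 663 CPM (0.758 and 0.000103). Grik1, a kainate receptor subunit of OFF bipolars, had the opposite direction, from 563 and 543 CPM to 216 and 218 CPM (0.95 and 4.34e-05). Of 6 metabotropic receptors, none was called with 22 libraries and 2 were called higher with 4: Grm5, from 11.03 and 8.48 CPM to 78.2 and 77.8 CPM, and Grm7, from 2.42 and 2.60 CPM to 13.7 and 26.5 CPM. Neither list held a gene with an unadjusted p under 0.05 in the 22-library limma fit, and voom on recovered reads called 1 ionotropic receptor higher.

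Inhibitory input and chloride handling showed several rises. Of 28 GABA and glycine receptor genes tested, 4 rose and none fell with 22 libraries, and 13 rose and none fell with 4, with a list median of 0.99. Over all genes tested 2.3% were higher with 22 libraries and 12.2% with 4. Beside Gabrr2 and Gabbr2, Slc12a5, the KCC2 transporter that lowers chloride in neurons, was at 275 and 267 CPM at P7 and 1161 and 1099 CPM at P13 (log2 fold change 2.06 ± 0.16 (SE), adjusted p = 2.41e-06), and its call held without each library. Gabrr1, the partner of Gabrr2, went from 113 and 102 CPM to 329 and 331 CPM and was called only with 4 libraries (4.11e-05, against 0.887). Glra1, a glycine receptor subunit, went from 11.8 and 8.03 CPM to 45.1 and 41.2 CPM with the same split (0.000425 and 0.919). Of 27 postsynaptic scaffold genes, 2 rose with 22 libraries and 8 rose and 1 fell with 4. Camk2b, a kinase subunit of dendrites, was at 63.5 and 71.4 CPM at P7 and 259 and 289.9 CPM at P13 (log2 fold change 2.02 ± 0.38 (SE), adjusted p = 0.00647, lost without replicate 1 at P7 or replicate 2 at P13 at 0.0645 and 0.0781), and the other was Nsf, described with the release genes.

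Genes of the axon terminal were read in 4 lists, and no difference between the lists was tested. None of 26 ribbon and active zone scaffold genes was called with 22 libraries, and 4 were higher and 1 lower with 4 libraries, with a median of 0.31, where 2.3% and 12.2% of all genes were higher in these fits. In the 22-library fit 3 had an unadjusted p under 0.05, and voom called 1 higher. Ctbp2, the source of the ribbon protein RIBEYE, was at 182 and 185 CPM at P7 and 249.6 and 194 CPM at P13, and its groups lay within 1 on the log2 scale (0.26). Bsn (bassoon) was at 142 and 126 CPM at P7 and 127 and 135 CPM at P13 and Pclo (piccolo) at 99.6 and 93.1 CPM at P7 and 128 and 131 CPM at P13. For these genes a change smaller than 2-fold would not have been called.

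Of 34 genes of exocytosis, 5 rose and 1 fell with 22 libraries, and 11 rose and none fell with 4 libraries. Among all genes, 2.3% rose and 0.686% fell with 22 libraries, and 12.2% and 4.57% with 4. Nsf, the ATPase that takes fusion complexes apart, was at 393 and 374 CPM at P7 and 1059 and 1188 CPM at P13 (log2 fold change 1.55 ± 0.18 (SE), adjusted p = 9.64e-05), and Napb, its SNAP partner, at 215 and 247 CPM at P7 and 538 and 590.0 CPM at P13 (log2 fold change 1.29 ± 0.15 (SE), adjusted p = 5.95e-05), both called without each library. Cplx3, the other complexin of ribbon synapses, was at 645 and 719 CPM at P7 and 1379 and 1350.0 CPM at P13 (log2 fold change 1.00 ± 0.22 (SE), adjusted p = 0.0175), a call lost without any 1 library (0.0952 to 0.164), and Stx4a, a plasma membrane syntaxin, went from 4.42 and 6.22 CPM to 20.2 and 20.1 CPM (log2 fold change 1.94 ± 0.38 (SE), adjusted p = 0.00733), lost in all but the fit without replicate 2 at P7 (0.0602 to 0.104). Doc2b, a calcium sensor of release, went from 4.47 and 2.03 CPM to 0.873 and 0 CPM (log2 fold change -5.24 ± 1.32 (SE), adjusted p = 0.0384), with no reads in replicate 2 at P13; it kept the call only without replicate 1 at P13 (1.08e-06 against 0.135 to 0.271), and the 4-library fit did not call it (0.0816). Snap25 and Syt1, core parts of the fusion machine, differed by less than 2-fold, at 0.89 and 0.66 on the log2 scale.

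Synaptic vesicle genes rose in several cases. Of 31 tested, 7 rose and none fell with 22 libraries, and 12 rose and none fell with 4, with a median of 0.71. Higher genes made up 2.3% of all genes with 22 libraries and 12.2% with 4. Slc17a7 encodes VGLUT1, which loads vesicles with glutamate, and was at 40.8 and 32.9 CPM at P7 and 216 and 189 CPM at P13 (log2 fold change 2.46 ± 0.16 (SE), adjusted p = 3.1e-07). Sv2b, a vesicle glycoprotein, was at 92.6 and 91.6 CPM at P7 and 191 and 200.3 CPM at P13 (log2 fold change 1.08 ± 0.19 (SE), adjusted p = 0.00297), Sncb (beta-synuclein) at 9.35 and 11.3 CPM at P7 and 38.8 and 55.3 CPM at P13 (log2 fold change 2.17 ± 0.34 (SE), adjusted p = 0.00122) and Atp6v1a, a subunit of the proton pump that drives loading, at 303 and 325 CPM at P7 and 681 and 669.8 CPM at P13 (log2 fold change 1.11 ± 0.18 (SE), adjusted p = 0.0015). The calls of these 4 held without each library. Synpr (synaptoporin) went from 12.3 and 14.9 CPM to 202 and 254 CPM (log2 fold change 4.06 ± 0.86 (SE), adjusted p = 0.0141), Syngr3 from 13.7 and 14.8 CPM to 69.1 and 75.3 CPM (log2 fold change 2.34 ± 0.54 (SE), adjusted p = 0.0229) and Atp6v1g2 from 53.4 and 51.4 CPM to 173 and 158 CPM (log2 fold change 1.66 ± 0.33 (SE), adjusted p = 0.0096), and each was lost without any 1 library (0.0663 to 0.182). Syp (synaptophysin) was at 19.6 and 22.3 CPM at P7 and 28.7 and 25.98 CPM at P13 and was not called in either fit. Voom on recovered reads did not call Sncb (adjusted p = 0.0534).

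In vesicle endocytosis 3 of 27 genes rose with 22 libraries and 5 with 4 libraries, and none fell. These fits called 2.3% and 12.2% of all genes higher. Sh3gl2 (endophilin A1) was at 167 and 171 CPM at P7 and 687 and 657 CPM at P13 (log2 fold change 1.99 ± 0.24 (SE), adjusted p = 9.27e-05) and Eps15, an adaptor of clathrin pits, at 71.3 and 69.6 CPM at P7 and 219 and 201 CPM at P13 (log2 fold change 1.58 ± 0.24 (SE), adjusted p = 0.00103), both held without each library. Dnm1, the dynamin that cuts vesicles free, went from 76.4 and 82.2 CPM to 145 and 175 CPM (log2 fold change 1.01 ± 0.24 (SE), adjusted p = 0.0255), lost without any 1 library (0.0678 to 0.269). Amph (amphiphysin) had the opposite sign, from 948 and 954 CPM to 614 and 635 CPM, with no call in either fit.

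Voltage-gated calcium channel genes gave 3 rises among 21 tested with 22 libraries, and 10 rises and 2 falls with 4. The shares of all genes were 2.3% higher with 22 libraries, and 12.2% higher and 4.57% lower with 4. Beside Cacnb2, Cacna1f, the pore of the channel that opens at ribbon terminals, was at 35.1 and 36.5 CPM at P7 and 106 and 86.1 CPM at P13 (log2 fold change 1.42 ± 0.18 (SE), adjusted p = 0.000193), held without each library. Cabp5, a calcium-binding protein of bipolars that acts on such channels, went from 65.8 and 69.1 CPM to 497 and 404 CPM (log2 fold change 2.73 ± 0.72 (SE), adjusted p = 0.0465), lost without any 1 library (0.213 to 0.251). Cacna2d4, the auxiliary subunit of the same channel, was at 598 and 513 CPM at P7 and 707 and 804 CPM at P13 and was not called. Cacna2d3, which overlaps Lrtm1, went from 20.1 and 13.8 CPM to 178 and 151 CPM and was called with 4 libraries (3.34e-05) and not with 22 (0.267).

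**Figure D3:**
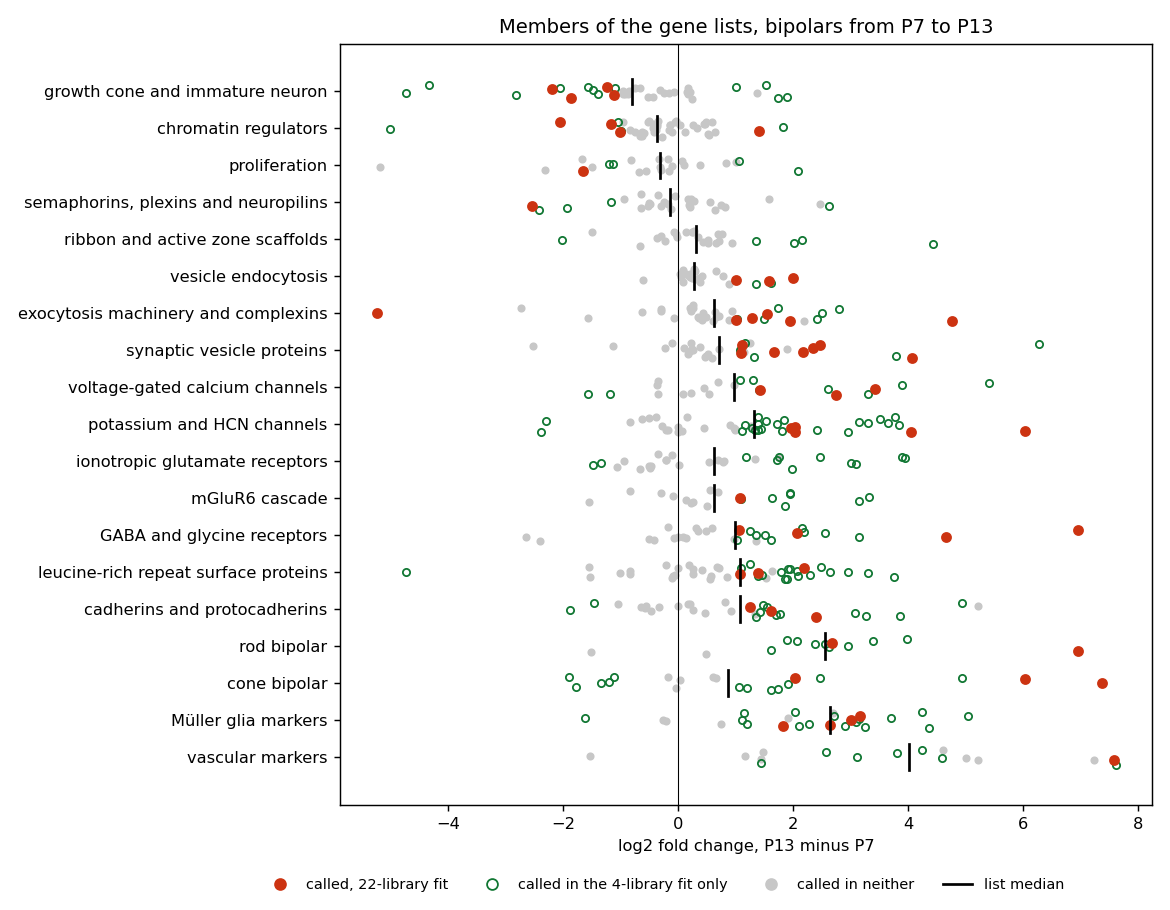
Log2 fold change of P13 minus P7 for the tested members of 19 gene lists; filled red points were called with all 22 libraries, open green points in the 4-library fit only, grey points in neither, and the black line is the list median. Growth cone genes have a median of -0.81, ribbon scaffolds 0.31, and rod bipolar and Müller glia genes 2.56 and 2.65.

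Excitability genes followed, read beside 2.3% of all genes higher and 0.686% lower with 22 libraries, and 12.2% and 4.57% with 4. Of 44 potassium and HCN channel genes, 5 rose and none fell with 22 libraries, and 25 rose and 2 fell with 4. The list median was 1.31. Kcnj14, an inward rectifier, went from 0.745 and 0.735 CPM to 14.4 and 10.6 CPM (log2 fold change 4.05 ± 0.75 (SE), adjusted p = 0.00576), lost without replicate 2 at P7 (0.0579) or replicate 1 at P13 (0.0625). Kcnab2, an auxiliary subunit, went from 18.8 and 13.9 CPM to 61.4 and 64.7 CPM (log2 fold change 1.96 ± 0.37 (SE), adjusted p = 0.00634), lost without replicate 2 at P7 (0.103) or at P13 (0.0701). No sodium channel gene of 10 was called with 22 libraries, and 6 rose with 4 libraries, among them Scn2a, from 5.26 and 6.10 CPM to 36.2 and 22.6 CPM, and Scn3a, from 10.8 and 9.27 CPM to 48.5 and 52.5 CPM. None of the 10 had an unadjusted p under 0.05 with 22 libraries, and voom called none.

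Of 19 ion pump and chloride transporter genes, 3 rose with 22 libraries, and 6 rose and 1 fell with 4. For all genes the higher shares were 2.3% and 12.2%. Atp2b1, a plasma membrane calcium pump, was at 237 and 239 CPM at P7 and 828 and 906 CPM at P13 (log2 fold change 1.86 ± 0.20 (SE), adjusted p = 3.92e-05), held without each library. Slc8a3, a sodium and calcium exchanger, went from 11.9 and 13.22 CPM to 34.3 and 49.7 CPM (log2 fold change 1.72 ± 0.39 (SE), adjusted p = 0.0206), lost without any 1 library (0.0517 to 0.253). Slc1a7 (EAAT5), the glutamate transporter of photoreceptor and bipolar terminals, was at 12.2 and 12.3 CPM at P7 and 53.8 and 55.6 CPM at P13 (log2 fold change 2.16 ± 0.19 (SE), adjusted p = 7.7e-06), held without each library. Gjd2, connexin 36 of the gap junctions between cone bipolars and amacrine cells, was at 227 and 287 CPM at P7 and 270.1 and 295 CPM at P13 and was not called.

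Some surface protein genes rose, read beside 2.3% of all genes higher with 22 libraries, and 12.2% higher and 4.57% lower with 4. Of 42 leucine-rich repeat genes, 3 rose with 22 libraries and 20 rose and 1 fell with 4, with a median of 1.08. Lingo3 was at 17.4 and 16.2 CPM at P7 and 73.9 and 79.2 CPM at P13 (log2 fold change 2.19 ± 0.24 (SE), adjusted p = 4.7e-05) and Lrit2 at 45.00 and 39.4 CPM at P7 and 132 and 91.6 CPM at P13 (log2 fold change 1.39 ± 0.20 (SE), adjusted p = 0.000704), both held without each library. Ntrk2 (TrkB, the receptor of BDNF), which has leucine-rich repeats, went from 53.6 and 51.4 CPM to 340.5 and 314 CPM, called with 4 libraries (7.74e-06) and not with 22 (0.558). Of 30 cadherins, 3 rose with 22 libraries, and 13 rose and 2 fell with 4. They were Pcdh15, an Usher syndrome protocadherin, at 18.6 and 15.7 CPM at P7 and 53.7 and 50.2 CPM at P13 (log2 fold change 1.61 ± 0.21 (SE), adjusted p = 0.000298), Cdhr1, known from photoreceptor outer segments, at 124.1 and 104 CPM at P7 and 286 and 255 CPM at P13 (log2 fold change 1.25 ± 0.16 (SE), adjusted p = 0.0002), and Cdh4, from 3.77 and 4.07 CPM to 15.6 and 27.6 CPM (log2 fold change 2.40 ± 0.57 (SE), adjusted p = 0.0274). The first 2 held without each library, and Cdh4 was lost without any 1 (0.0602 to 0.307). Cdh11 went from 43.8 and 35.4 CPM to 313 and 347 CPM, called with 4 libraries (1.07e-05) and not with 22 (0.359).

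Among 45 immunoglobulin superfamily genes, 2 rose and 1 fell with 22 libraries, and 15 rose and 2 fell with 4. Over all genes these fits called 2.3% and 12.2% higher, and 0.686% and 4.57% lower. Cadm1 (SynCAM1), a synaptic adhesion protein, was at 101 and 95.1 CPM at P7 and 377 and 519 CPM at P13 (log2 fold change 2.18 ± 0.21 (SE), adjusted p = 1.31e-05), and Jam2, a junctional adhesion molecule, at 199 and 187 CPM at P7 and 65.9 and 82.2 CPM at P13 (log2 fold change -1.39 ± 0.15 (SE), adjusted p = 3.37e-05), both held without each library. Ntm (neurotrimin) went from 48.3 and 42.2 CPM to 116 and 120.4 CPM (log2 fold change 1.39 ± 0.26 (SE), adjusted p = 0.0058), lost without replicate 2 at P7 or at P13 (0.0840 and 0.0648). Tenm4, a teneurin that binds latrophilins across the cleft, was at 13.96 and 11.8 CPM at P7 and 86.3 and 111 CPM at P13 (log2 fold change 2.93 ± 0.33 (SE), adjusted p = 5.24e-05), held without each library. It was 1 of 2 called with 22 libraries among 35 neurexins, neuroligins, teneurins and latrophilins, of which 9 rose and 1 fell with 4. The other, Cntnap5b, had no reads at P7 and 143 at P13, at least 45.3-fold higher against 3 reads over the group, and was lost without any 1 library (0.0917 to 0.206).

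Guidance genes were read beside the 2.98% of all genes called with 22 libraries. Plxnb1 was the 1 called gene of 28 semaphorins, plexins and neuropilins, none of 34 ephrin, Slit and netrin genes was called, and none of 45 Wnt pathway genes. With 4 libraries these lists held 1 rise and 4 falls, 5 rises and 4 falls, and 9 rises and 6 falls, against 12.2% and 4.57% of all genes. Unadjusted p was under 0.05 with 22 libraries for 2 of the ephrin, Slit and netrin genes and 5 of the Wnt genes, and voom called 2 and 0. Wnt5a, a secreted ligand, went from 3.12 and 2.37 CPM to 13.97 and 13.3 CPM, called with 4 libraries (0.00114) and not with 22 (0.793). Wnt5b was at 14.9 and 15.9 CPM at P7 and 8.87 and 8.63 CPM at P13 and Ryk, a receptor for these ligands, at 72.2 and 71.3 CPM at P7 and 39.1 and 42.8 CPM at P13, called in neither fit. Of 29 matrix genes Egflam alone was called with 22 libraries, and 7 rose and 6 fell with 4. Agrn (agrin) went from 619 and 538 CPM to 287 and 284 CPM and was called lower with 4 libraries (0.000299).

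Genes of growing neurites fell in part. Of all genes, 2.3% were higher and 0.686% lower with 22 libraries, and 12.2% and 4.57% with 4. Of 36 growth cone and immature neuron genes, 4 fell and none rose with 22 libraries, and 12 fell and 4 rose with 4, with a median of -0.81. Tuba1a, the alpha tubulin of young neurons, was at 9986 and 8768 CPM at P7 and 4096 and 3825 CPM at P13 (log2 fold change -1.24 ± 0.19 (SE), adjusted p = 0.00111), held without each library. Stmn1 (stathmin), which takes microtubules apart, went from 1615 and 1736 CPM to 369 and 358 CPM (log2 fold change -2.20 ± 0.46 (SE), adjusted p = 0.012), lost without any 1 library (0.0737 to 0.116). Tubb5 went from 1454 and 1544 CPM to 643 and 744 CPM (log2 fold change -1.12 ± 0.21 (SE), adjusted p = 0.00714), lost without replicate 2 at P7 (0.0872) or replicate 1 at P13 (0.0847). Tubulin genes are near-copies of each other, so reads may be shared among them. Marcks, a substrate of protein kinase C at the membrane of growth cones, went from 1399.9 and 1327 CPM to 605 and 663 CPM (0.0598 with 22 libraries and 0.000102 with 4). Gap43 and Dcx, markers of young neurons, lay the other way. Gap43 was at 17.9 and 7.97 CPM at P7 and 38.3 and 51.4 CPM at P13 and Dcx at 11.2 and 9.61 CPM at P7 and 19.4 and 22.3 CPM at P13, both called higher with 4 libraries (0.00596 and 0.00954) and in neither direction with 22. Map2, a marker of dendrites, was at 146 and 173 CPM at P7 and 151 and 174 CPM at P13, a log2 fold change of 0.03. Among 44 cytoskeleton genes 2 rose with 22 libraries and none fell, and 4 rose and 3 fell with 4. Of the 2 rises, Dst and Tuba4a, voom on recovered reads did not call Tuba4a (adjusted p = 0.193). Dst (dystonin), a linker of filaments, was at 18.3 and 11.8 CPM at P7 and 101 and 119 CPM at P13 (log2 fold change 2.90 ± 0.53 (SE), adjusted p = 0.00464, lost without replicate 2 at P7 or at P13 at 0.0818 and 0.0616), and Tuba4a went from 3 reads at P7 to 72 at P13 (ratio 22.8, exact 95% interval 7.495 to 113, held without each library).

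Chromatin and cell cycle genes were read as lists, beside 2.3% higher and 0.686% lower over all genes with 22 libraries and 12.2% and 4.57% with 4. Of 43 chromatin regulators, 1 rose and 3 fell with 22 libraries, and 2 rose and 6 fell with 4. Dnmt3a, a DNA methyltransferase of maturing neurons, was at 122 and 113 CPM at P7 and 289 and 329 CPM at P13 (log2 fold change 1.40 ± 0.18 (SE), adjusted p = 0.0002), held without each library. Lmnb1 (lamin B1) went from 52.4 and 73.6 CPM to 17.9 and 12.3 CPM (log2 fold change -2.06 ± 0.45 (SE), adjusted p = 0.0167), Ezh2, the histone H3 lysine methylase of Polycomb, from 258 and 257 CPM to 129.6 and 126 CPM (log2 fold change -1.01 ± 0.22 (SE), adjusted p = 0.0152), and Chd7 from 63.3 and 59.6 CPM to 28.5 and 25.9 CPM (log2 fold change -1.18 ± 0.26 (SE), adjusted p = 0.017), each lost without any 1 library (0.0502 to 0.218). Of 23 proliferation genes, Mcm7 alone was called with 22 libraries, and 2 rose and 3 fell with 4. Mcm7 went from 48.3 and 47.2 CPM to 14.6 and 15.6 CPM (log2 fold change -1.66, adjusted p = 0.05, lost without any 1 library at 0.228 to 0.292). Of 28 neural splicing regulators 1 rose with 22 libraries and 3 with 4, and Msi2 (Musashi 2) was the one, at 63.8 and 52.96 CPM at P7 and 130.3 and 152 CPM at P13 (log2 fold change 1.27 ± 0.23 (SE), adjusted p = 0.0048, lost without replicate 2 at P7 or at P13 at 0.0854 and 0.0781).

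Metabolic genes were read beside the same 2.98% called with 22 libraries. With 4 libraries 12.2% of all genes were higher and 4.57% lower, 16.7% in either direction. None of 71 nuclear respiratory chain genes was called in either fit or by voom, with a median of 0.38, and 11 had an unadjusted p under 0.05 with 22 libraries. Of 22 glycolysis genes, 2 rose with 22 libraries, and 4 rose and 3 fell with 4. Aldoc, an aldolase of brain, was at 5.91 and 8.19 CPM at P7 and 44.8 and 54.1 CPM at P13 (log2 fold change 2.82 ± 0.27 (SE), adjusted p = 1.3e-05) and Eno2, the neuronal enolase, at 44.2 and 49.3 CPM at P7 and 158 and 219 CPM at P13 (log2 fold change 1.99 ± 0.20 (SE), adjusted p = 2.23e-05), both held without each library. Ldha had the opposite sign, at 1814 and 1749.7 CPM at P7 and 1147 and 1143 CPM at P13, and was not called. Srebf1, a regulator of lipid synthesis, was at 54.4 and 61.9 CPM at P7 and 15.1 and 19.5 CPM at P13 (log2 fold change -1.76 ± 0.27 (SE), adjusted p = 0.00111), the 1 call with 22 libraries among 32 genes of cholesterol and fatty acid synthesis, held without each library. With 4 libraries 2 of the 32 rose and 2 fell. None of 31 immediate early and stress genes was called with 22 libraries, and 2 were with 4, while 3 had an unadjusted p under 0.05 and voom called none. Fos was at 25.1 and 35.9 CPM at P7 and 41.3 and 165 CPM at P13, with replicate 2 at P13 above the other 3 libraries.

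Genes that mark bipolar classes were read next, beside 2.3% of all genes higher with 22 libraries and 12.2% with 4. The 13 rod bipolar genes summed to 966 and 874 CPM at P7 and to 2431 and 2398 CPM at P13, and 2 of them rose with 22 libraries and 11 with 4, with none lower and a median of 2.56. Sebox, a homeobox gene, went from 10.2 and 12.7 CPM to 73.2 and 72.3 CPM (log2 fold change 2.68 ± 0.53 (SE), adjusted p = 0.00863, lost without any 1 library at 0.0585 to 0.0900), and Ntng1 (netrin G1) from 41.97 and 29.2 CPM to 209 and 204 CPM (5.52e-05 with 4 libraries and 0.904 with 22). Prkca, the kinase by which rod bipolars are usually stained, was at 682 and 595 CPM at P7 and 903 and 880.3 CPM at P13, a log2 fold change of 0.48, and was called in neither fit. The rod bipolar libraries at P13 had 10104 and 11984 CPM of the same list. The 20 cone bipolar genes tested summed to 2519 and 2447 CPM at P7 and 2763 and 2689 CPM at P13. Of these, 3 rose and none fell with 22 libraries, while 10 rose and 5 fell with 4. Vsx1, a homeobox gene of cone bipolars, went from 604 and 616 CPM to 263 and 265 CPM and was called lower with 4 libraries (6.24e-05, against 0.933), and Scgn (secretagogin) was at 392 and 325 CPM at P7 and 580.0 and 508 CPM at P13 and called in neither. The factor Isl1, at 953 and 1014 CPM at P7 and 819 and 865 CPM at P13, changed by less than 1 on the log2 scale. Nfia, a factor found in some bipolar types and in glia, went from 33.3 and 25.7 CPM to 542 and 616 CPM, called with 4 libraries (4.77e-06) and not with 22 (0.222).

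Markers of other cells were read as lists, beside 2.3% of all genes higher with 22 libraries and 12.2% with 4. Of 25 Müller glia markers, 4 rose with 22 libraries, and 19 rose and 1 fell with 4, with a median of 2.65 and no list gene without reads except Gfap in replicate 2 at P7. Glul (glutamine synthetase) was at 126 and 127 CPM at P7 and 413 and 479 CPM at P13 (log2 fold change 1.81 ± 0.30 (SE), adjusted p = 0.00224), Clu (clusterin) at 10.2 and 9.78 CPM at P7 and 81.2 and 99.04 CPM at P13 (log2 fold change 3.16 ± 0.40 (SE), adjusted p = 0.000185) and Mfge8 at 7.31 and 7.57 CPM at P7 and 42.3 and 83.9 CPM at P13 (adjusted p = 0.000123), held without each library, and Slc1a3 (GLAST) went from 9.26 and 8.48 CPM to 42.3 and 72.8 CPM (log2 fold change 2.65 ± 0.66 (SE), adjusted p = 0.0363, lost without any 1 library at 0.0938 to 0.350). Replicate 2 at P13 held more Mfge8 and Slc1a3 than replicate 1. The same list summed to 200 and 364 CPM in rod bipolars and 485 and 544 CPM in cone bipolars at P13, below both P13 bipolar libraries. For a gene that Müller glia also express, the cell types that gave the reads cannot be told apart in these libraries.

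None of 16 microglia markers was called with 22 libraries, and 8 rose and 1 fell with 4, with a median of 2.79. The same fits called 2.3% and 12.2% of all genes higher. With 22 libraries 2 had an unadjusted p under 0.05, and voom called none. Of 16 vascular markers 1 rose with 22 libraries and 8 with 4, with a median of 4.01 (3.91 with genes that had no reads in a group at their bound against 3 reads). Kcnj8, a pericyte channel, had no reads at P7 and 58 at P13, at least 18.4-fold higher. Of 12 markers of pigment epithelium and red blood cells, 3 rose with 22 libraries and 9 with 4, with a median of 5.41 (4.16 at the bound). Hba-a2, Hbb-bt and Hba-a1, the globins, had no reads at P7 and 237, 106 and 74 reads at P13, at least 75.04-, 33.6- and 23.4-fold higher, and the globin genes are near-copies that may share reads. Amacrine markers (19), horizontal cell markers (9) and ganglion cell markers (15) gave no call with 22 libraries except Jam2, listed with the last and lower at P13. With 4 libraries they held 5 rises and 2 falls, 1 rise and 2 falls, and 4 rises and 2 falls. With 22 libraries 2 amacrine markers and 0 horizontal cell markers had an unadjusted p under 0.05, and voom called 1 amacrine marker higher and 2 horizontal cell markers lower. The 4 calls of Kcnj8 and the globins were lost without any 1 library (0.111 to 0.275).

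Photoreceptor transcripts were present and moved in both directions. They were read beside 2.3% of all genes higher and 0.686% lower with 22 libraries, and 12.2% and 4.57% with 4. Of 30 rod markers, 6 rose and 4 fell with 22 libraries, and 6 rose and 6 fell with 4, with a median of 0.13. With voom on recovered reads 0 rose and 0 fell. Gngt1, the gamma subunit of rod transducin, was at 16.4 and 9.33 CPM at P7 and 177 and 139 CPM at P13 (log2 fold change 3.66 ± 0.33 (SE), adjusted p = 7.72e-06), and Cngb1, a subunit of the rod channel, at 9.87 and 5.76 CPM at P7 and 29.97 and 33.4 CPM at P13 (log2 fold change 2.07 ± 0.33 (SE), adjusted p = 0.00142), both held without each library. Nrl, the factor that sets rod fate, went from 24.8 and 23.7 CPM to 7.42 and 7.22 CPM (log2 fold change -1.73 ± 0.40 (SE), adjusted p = 0.024, lost without any 1 library at 0.118 to 0.170), and Rp1, of the rod axoneme, from 12.6 and 8.42 CPM to 2.76 and 2.33 CPM (log2 fold change -2.02 ± 0.42 (SE), adjusted p = 0.0123, lost without each library but replicate 2 at P7, at 0.0581 to 0.156). The voom adjusted p was 0.0534 for Gngt1, 0.204 for Cngb1, 0.351 for Nrl and 0.360 for Rp1. Mean Gngt1 was 2912 CPM in rods at P7 and 10899 CPM at P13. The sum of the 17 cone markers went from 409 and 389 CPM to 1384 and 1485 CPM, and most of that came from Mgarp, a mitochondrial protein that bipolars also express, at 179 and 159.7 CPM at P7 and 1083 and 1169.8 CPM at P13 (log2 fold change 2.73 ± 0.20 (SE), adjusted p = 1.17e-06). Arr3 and Cnga3 had no reads in replicate 2 at P13.

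**Figure D4:**
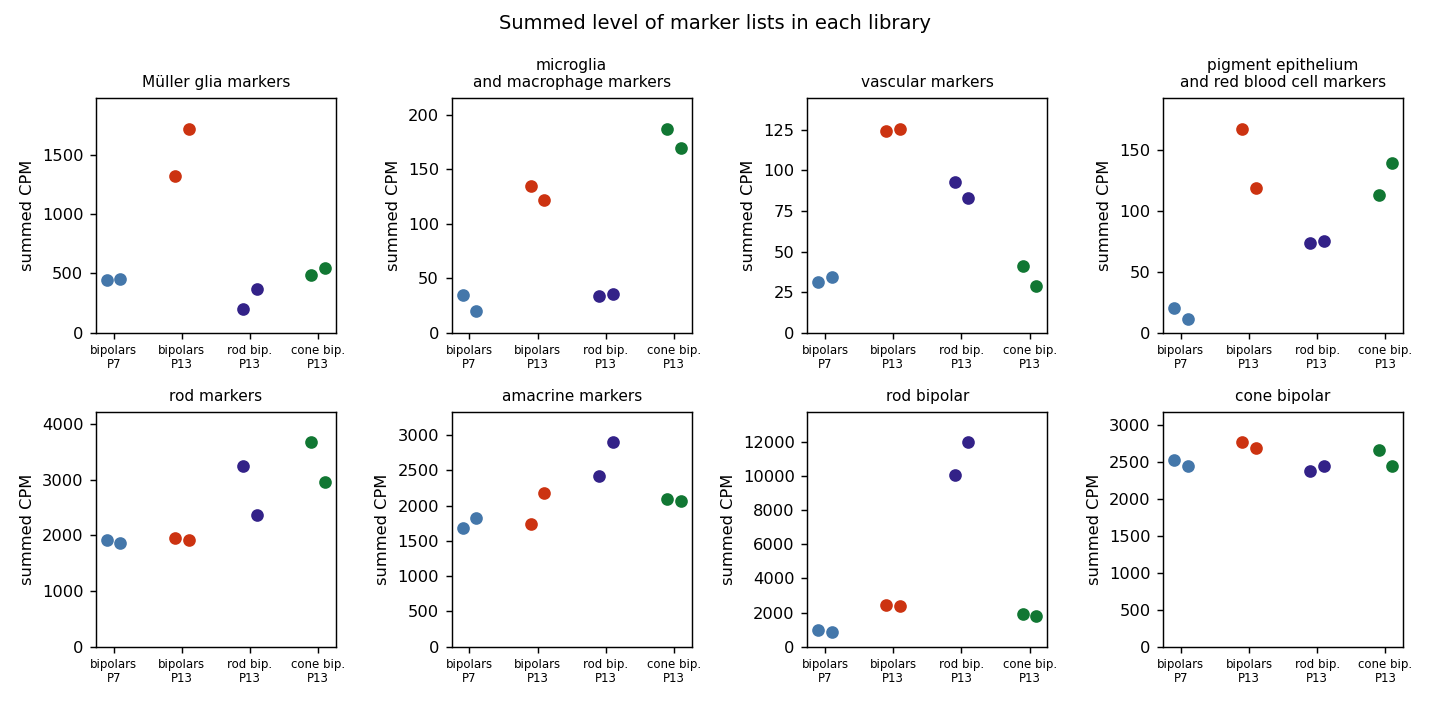
Summed CPM of 8 marker lists in each library of bipolars at P7 and P13, rod bipolars at P13 and cone bipolars at P13, on axes that start at 0. Müller glia markers stand at 445 and 448 CPM in the P7 bipolars and 1323 and 1719.9 CPM in the P13 bipolars, and rod markers at 1872 to 1959 CPM in all 4.

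The next question was whether the change was shared with the photoreceptors of the same ages. Between P7 and P13, 755 genes rose (5.63%) and 941 fell (7.02%) in rods, and in cones 59 genes were called (0.44%), 29 higher (0.216%) and 30 lower (0.224%). Of the 308 genes higher in bipolars, 79 (25.6%) were also higher in rods, which is 10.5% of the rod list, and 10 were also higher in cones (3.25% of the bipolar list and 34.5% of the cone list). Of the 92 lower genes, 13 were also lower in rods and 1 in cones. A rise in bipolars met a fall in rods in 16 genes.

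The difference itself was tested as the bipolar change minus the mean of the rod and cone changes. It was called for 408 genes (3.04%), 241 positive (1.8%) and 167 negative (1.25%). This split moves with the scaling. The median difference over all genes was 0.13 with the deposited scaling, 0.45 with plain read totals and 0.01 without mitochondrial genome transcripts, and 59.1%, 87.8% and 45.5% of the calls were positive. Cplx4 was higher at P13 in all 3 cell types, with log2 fold changes of 4.75 in bipolars, 2.19 in rods and 2.02 in cones, and the difference was 2.65 ± 0.35, adjusted p = 0.000652. For Cacnb2 the 3 values were 3.43, 0.60 and 0.55, and the difference was 2.85 ± 0.37, adjusted p = 0.00062. For Gabbr2 they were 4.65, -0.98 and 0.14 (5.07 ± 0.73, adjusted p = 0.00135), and for Dpysl3 -1.86, -0.29 and 0.06 (-1.75 ± 0.27, adjusted p = 0.00237).

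Other bipolar rises that differed from the photoreceptor change were Esrrg (4.80 ± 0.38, adjusted p = 1.09e-05), Cadm1 (2.40 ± 0.26, adjusted p = 0.000168), Slc17a7 (1.58 ± 0.19, adjusted p = 0.000446) and Atp2b1 (1.496 ± 0.25, adjusted p = 0.00338). Kank1 fell in bipolars and stood at 128 and 139.7 CPM in rods (-3.56 ± 0.42, adjusted p = 0.000319), and Jam2 at 629 and 748 CPM (-1.64 ± 0.18, adjusted p = 0.000196). For Mgarp, Stmn1 and Tuba1a the difference was not called (0.86 ± 0.25, adjusted p = 0.074, 0.68 ± 0.56, adjusted p = 0.614 and -0.84 ± 0.23, adjusted p = 0.0613). All differences in this paragraph are log2 values with their SE and adjusted p.

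**Figure D5:**
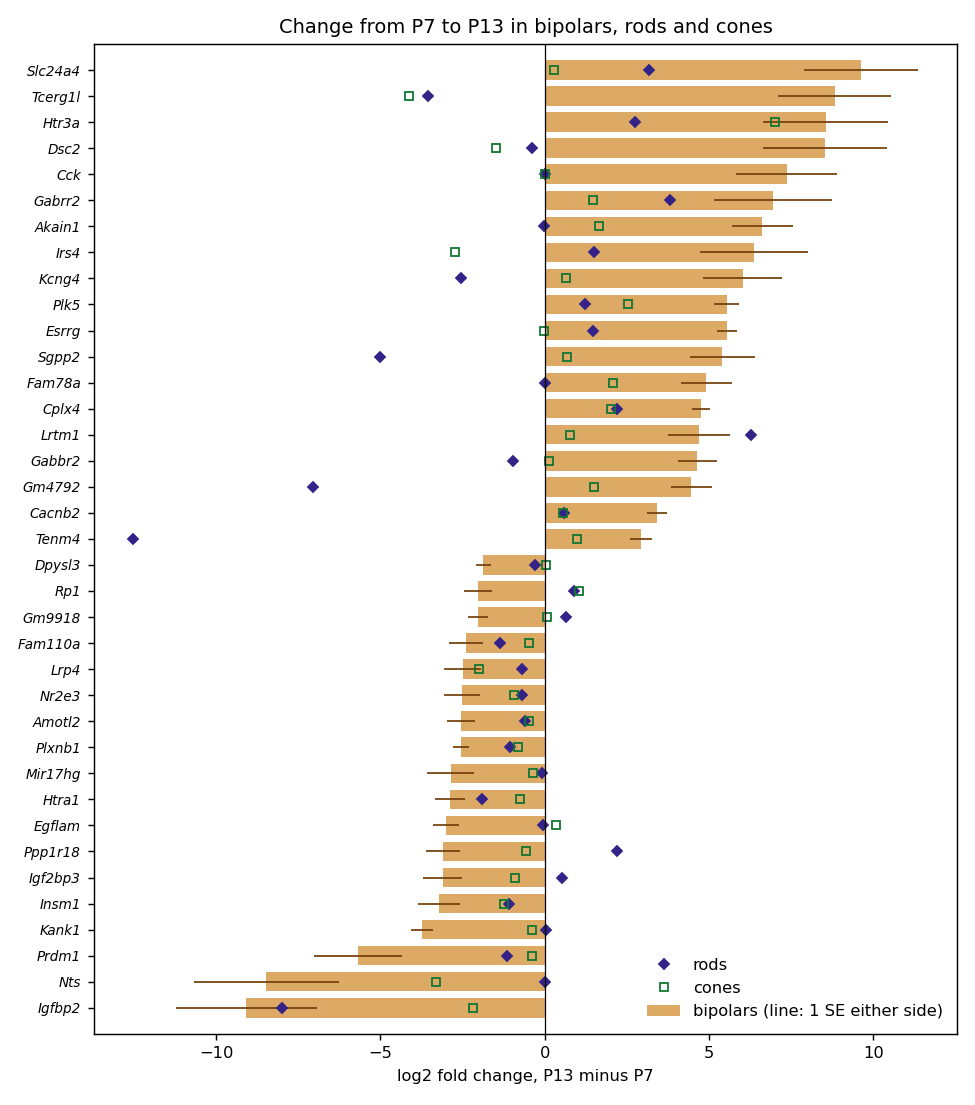
Log2 fold change of P13 minus P7 for 37 genes: the 33 given and leading genes, and Tenm4, Rp1, Gm4792 and Gm9918. The added genes were chosen because their bipolar change differed most from that of rods and cones. Bars with lines of 1 SE are bipolars, filled diamonds rods and open squares cones. For Cacnb2, Gabbr2 and Kank1 the rod and cone marks lie near 0 (between -0.98 and 0.60) and the bipolar bar far from it, and for Cplx4 all 3 lie above 2.

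Bipolars at P30 give the next age, with the P13 libraries shared by both steps, so each step is given by its own values. From P13 to P30, 187 genes were called higher (1.39%) and 63 lower (0.47%). Mean Cplx4 was 185 CPM at P30 (log2 fold change from P13 1.06), Cacnb2 86.5 CPM (0.14) and Gabbr2 98.6 CPM (-0.26), and none of these 3 was called in the later step. Dpysl3 was at 59.4 CPM and was called lower again (-1.36). Mgarp, at 3208 CPM, was called higher (1.51). Htra1 and Egflam, which fell from P7 to P13, were called higher from P13 to P30 (2.28 and 2.05, at 119.6 and 5.83 CPM). Müller glia markers were higher still at P30: mean Glul was 3082 CPM and mean Clu 697 CPM.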

How the data were processed

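RNA of sorted mouse retinal cells was linearly amplified and made into libraries with the TruSeq RNA Library Prep kit v2, per the labels' protocols, a kit that does not mark strand. The values are log2 CPM that the authors deposited for 22 libraries, and the submitters' processing notes name STAR, edgeR and GRCm38 (mm10). For the read counter, the annotation and any filter, the sources used here give nothing. Identifiers were named through GENCODE M21, and 13790 of 13812 genes had a symbol. Values gave whole reads in 100% of cases (tolerance 0.01 reads), so depth is known, at 14403312 to 54384385 reads per library.

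Genes with log2 CPM of at least 0 in both libraries of a group were kept (13410). A single limma 3.58.1 model (R 4.3.3; residual df 11) with a group term, an intensity trend and all 22 libraries was fitted, with p-values adjusted over all genes by Benjamini-Hochberg. The threshold for a call was an adjusted p below 0.05 with a log2 change of 1 or more in size. Every adjusted p in the text is from limma. A fit that leaves out 1 library leaves its arm with 1 library, assumed to vary like the others.

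Genes named are the 4 given markers, the 15 largest rises and falls among called genes with non-overlapping groups and log2 CPM of at least 3 in the higher group, called and highest uncalled members of each gene list, the 6 largest differences from photoreceptors in each direction, and a fixed set. The members and lists were chosen with earlier results of these data known. Alternatives covered filters, the pseudocount, scaling, the libraries fitted, weights, a replicate block and each library left out. The code was tested on simulated data. Floors and read intervals cover counting error only. Some items are not reported here.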

Additional observations from a re-analysis of the deposited data

Results flagged for a closer look

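The results here are genes called both in bipolars and in the difference between the bipolar change from P7 to P13 and the mean of the rod and cone changes, that is, genes for which that difference itself passed the limma test. The 6 most positive differences were 12.67 for Tcerg1l, 9.47 for Dsc2, 8.71 for Tenm4, 7.57 for Sgpp2, 7.36 for Cck and 7.24 for Gm4792 on the log2 scale. The bipolar change alone was 8.83 for Tcerg1l, 8.53 for Dsc2, 5.41 for Sgpp2 and 7.36 for Cck. For Tcerg1l, Dsc2, Sgpp2 and Tenm4 it was smaller than the difference, so part of the size lay in the rod and cone changes. Where a group had no reads, as for Cck in rods and cones of these ages, the size depends on the small value added before the log and is no bound. The 6 most negative were -3.92 for Ppp1r18, -3.56 for Kank1, -3.16 for Egflam, -2.99 for Rp1, -2.91 for Igf2bp3 and -2.39 for Gm9918.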

How the results depend on the processing

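The 308 higher and 92 lower genes became 693 and 224 with log2(CPM + 1), 1475 and 553 with only the 4 libraries, 1046 and 259 with the 10 bipolar, rod bipolar and cone bipolar libraries, and 1165 and 465 with array quality weights. Leaving out 1 bipolar library gave 134 to 181 higher and 31 to 72 lower genes. Counts stayed within 1.5 times with other filters, plain read totals, mitochondrial transcripts taken out, and voom on recovered reads (279 and 122), an alternative chosen after seeing the data. The genes were not all the same: voom shared 150 of the 308 higher (48.7%) and 54 of the 92 lower (58.7%), which is 53.8% and 44.3% of its own calls. The difference from photoreceptors (241 positive, 167 negative) became 586 and 289 with log2(CPM + 1), 446 and 62 with plain read totals, 209 and 250 without mitochondrial transcripts, 601 and 305 with array weights, and 231 and 87 with voom. Leaving out 1 library gave 74 to 783 positive and 30 to 286 negative genes. The highest counts came without replicate 1 of rods at P13 (783 and 286) and the lowest without replicate 2 of bipolars at P13 (74 and 30). Beyond fewer or more libraries in the fit, the cause was not tested.

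The replicate numbers were not taken to pair the libraries, since there are only 2 pairs and the deviations of same-numbered P7 and P13 bipolars correlated at 0.09. A replicate block gave 274 higher and 83 lower genes, and 226 positive and 158 negative differences. The planned edgeR and DESeq2 tests were not run, because the deposited values are log2 CPM.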
